A study of Mus musculus with 6 samples.

Results

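The 10 genes examined belong to guanine deamination and purine salvage and are Gda, Xdh, Pnp, Ada, Hprt, Ampd3, Nt5e, Impdh1, Impdh2 and Adk. They were taken by symbol from a table of 49523 gene symbols, and all 10 were present. The table holds read counts of 6 RNA-seq libraries of EO771, a mouse mammary carcinoma cell line. In 3 libraries the cells are labelled cancer stem cells (CSC) and in 3 they are labelled non-CSC, and the labels give no treatment, time or genotype for either group beyond the line itself. How the CSC were obtained, and whether replicates came from separate cultures, is not said, so the spread behind each p-value is that of the 3 libraries in a group and may be technical only. The study asked which genes differ in expression between CSC and non-CSC. The 10 genes were chosen by their measured counts in this same comparison: Gda for its large difference between CSC and non-CSC, and the others as its purine partners, with their differences known. Their values are therefore a description. Where the fit over all genes called a member, this is stated as a description too, and p-values are printed only for genes outside the 10.

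Purine nucleotides are built either from small precursors, by de novo synthesis, or by salvage, in which free bases and nucleosides are recovered. Breakdown runs from AMP and GMP through nucleosides to the bases hypoxanthine and guanine. Guanine is deaminated to xanthine by Gda, and Xdh oxidises hypoxanthine and xanthine to urate. Hprt competes for the same bases by returning hypoxanthine and guanine to nucleotides, Adk does so for adenosine, and the IMP dehydrogenases Impdh1 and Impdh2 open the route to GTP. In the mammary gland Xdh is also known as a protein of the milk fat droplet envelope.

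Promoters are shown for the gene with the largest difference (Gda), for a salvage gene that was higher in CSC (Adk, the first of 2 listed starts) and for a gene of the GTP branch that was lower (Impdh2), since the members differ in which common promoter elements they hold. Each runs from 250 bases before to 50 bases after the gene start on the gene's own strand, from RefSeq on GRCm38.p6. Capitals mark matches on either strand to the E-box CACGTG, the cyclic AMP element TGACGTCA, the GC box GGGCGG, the TATA element TATAAA or the AP-1 element TGANTCA.
Gda, chr19:21472612-21472911, minus strand: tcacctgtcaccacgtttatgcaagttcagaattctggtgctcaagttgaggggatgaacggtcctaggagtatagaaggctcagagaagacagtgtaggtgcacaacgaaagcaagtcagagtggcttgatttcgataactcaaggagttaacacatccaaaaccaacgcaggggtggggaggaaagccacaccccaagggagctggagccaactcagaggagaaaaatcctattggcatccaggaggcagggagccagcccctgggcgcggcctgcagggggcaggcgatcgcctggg
Adk, chr14:21052324-21052623, plus strand: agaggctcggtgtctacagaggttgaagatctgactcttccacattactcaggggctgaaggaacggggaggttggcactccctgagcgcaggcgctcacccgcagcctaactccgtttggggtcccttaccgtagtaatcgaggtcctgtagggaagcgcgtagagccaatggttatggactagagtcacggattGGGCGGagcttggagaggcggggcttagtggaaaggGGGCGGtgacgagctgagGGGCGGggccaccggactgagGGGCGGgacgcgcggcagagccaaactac
Impdh2, chr9:108560186-108560485, plus strand: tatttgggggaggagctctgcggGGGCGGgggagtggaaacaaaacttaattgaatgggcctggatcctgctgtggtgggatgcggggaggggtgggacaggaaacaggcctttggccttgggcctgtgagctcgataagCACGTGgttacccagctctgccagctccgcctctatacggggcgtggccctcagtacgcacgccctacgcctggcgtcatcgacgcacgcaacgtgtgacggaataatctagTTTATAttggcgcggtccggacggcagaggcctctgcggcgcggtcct
The Gda window held none of these letter strings, and 55% of its bases were G or C. The Adk window held 4 GC boxes. The Impdh2 window held an E-box 110 bases before the start and a GC box further before it. Its TATA match lay just after the start and on the opposite strand. No promoter was listed for Xdh. Of the 9 members with a listed promoter, 7 had a GC box at every listed start, and the 2 without any were Gda and Ampd3. Counted by promoter, 9 of the 13 listed for members held a GC box. Of all 32851 promoters listed, 35.7% held a GC box, 7.15% an E-box, 1.79% a cyclic AMP element, 13.6% a TATA match and 7.81% an AP-1 match. A match describes the letters only and does not show that a factor binds there.

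Levels are given in CPM, the counts of a gene relative to the library's total, scaled by the trimmed mean of M values (TMM), and differences as log2 fold changes of CSC over non-CSC with the standard error (SE) of the edgeR fit over all genes. All 10 genes passed the low-count filter. Of them, 7 had an adjusted p under 0.05 in that fit, against 66.5% of all genes tested. In CSC 5 were higher and 2 lower, against 33.4% and 33.1% of all genes. Of the 5, 3 were at least 2-fold higher, against 8.01% of all genes, and 0 of the 10 were at least 2-fold lower, against 4.09%. The groups did not overlap for 7 of the 10, against 69.3% of all genes. The median log2 fold change of the 10 was 0.23, and that of all 17630 genes tested was 0.011. Because the choice of members used this comparison, nothing is read from these counts. In bulk RNA a change in the number of cells that express a gene and a change in RNA per cell cannot be told apart.

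**Figure D1:**
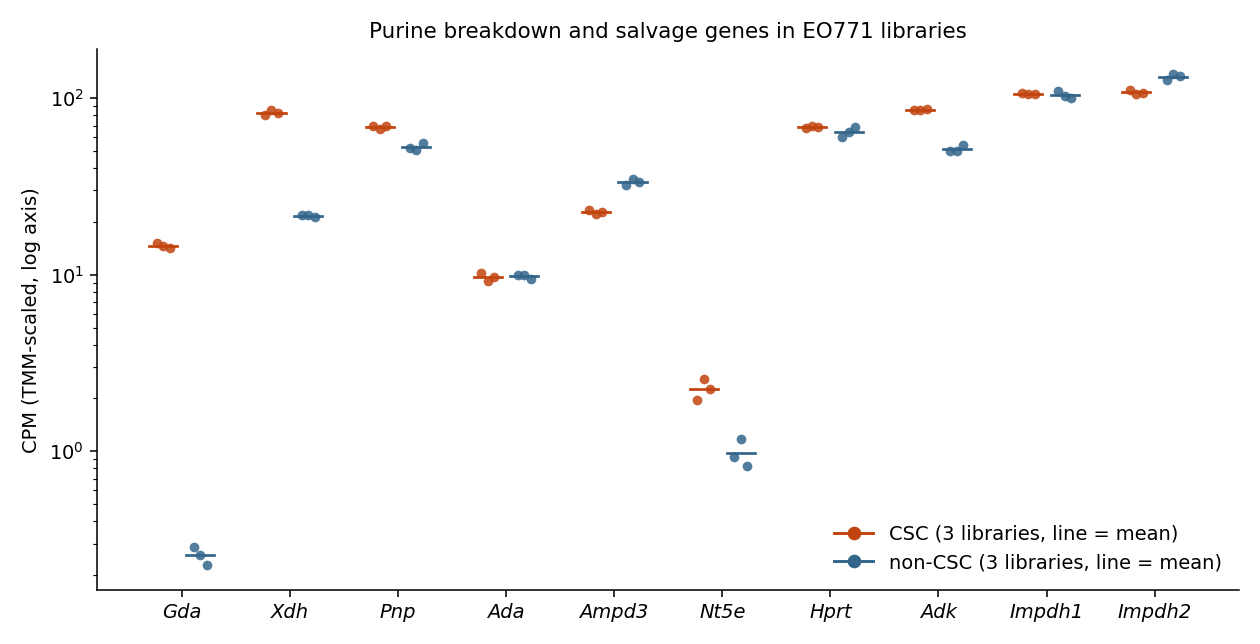
Level of each gene in CPM (log axis) in every library, CSC left of non-CSC, with lines at the group means. Gda sits between 14.1 and 15.2 CPM in CSC and between 0.226 and 0.287 CPM in non-CSC, while the points of Ada, Hprt and Impdh1 overlap between the groups.

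The deaminase and oxidase at the end of guanine breakdown had the largest log2 fold changes of the 10 genes. Gda (chromosome 19, 21391307 to 21472661, GRCm38), the enzyme that turns guanine into xanthine, was counted 420, 412 and 410 times in the CSC libraries, against 9, 9 and 8 times in the non-CSC libraries. As levels these are 15.2, 14.6 and 14.1 CPM in CSC, against 0.287, 0.259 and 0.226 CPM in non-CSC. Every CSC library was far above every non-CSC library, and within a group the libraries were close together. The group means of 14.6 ± 0.561 CPM in CSC and 0.258 ± 0.0303 CPM in non-CSC (SD, n = 3 each) differ 56.9-fold, and the log2 fold change was 5.81 (SE 0.139), the 26th highest of the genes tested. The non-CSC level rests on few reads. For the lowest non-CSC library the exact Poisson 95% interval was 0.0977 to 0.446 CPM, and for the lowest CSC library it was 12.8 to 15.6 CPM, both covering counting error only.

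Xdh (chromosome 17, 73883895 to 73950397), which makes urate from hypoxanthine and xanthine, moved in the same direction. It had 80.4, 85.2 and 82.9 CPM in the CSC libraries, against 21.9, 21.9 and 21.2 CPM in the non-CSC libraries. The groups were well apart, and the spread within them was small beside the gap. The means were 82.8 ± 2.38 CPM in CSC and 21.6 ± 0.418 CPM in non-CSC (SD, n = 3 each), a 3.83-fold difference with a log2 fold change of 1.94 (SE 0.0463). Per kilobase of the longest transcript, the level of Gda was 0.254 ± 0.0156 of that of Xdh in CSC and 0.0170 ± 0.00174 of it in non-CSC (SD, n = 3 each), so Gda was the lower of the pair in both groups. With the mean length of all annotated transcripts the ratio was 0.0951 ± 0.00584 in CSC and 0.00639 ± 0.000652 in non-CSC (SD, n = 3 each).

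Pnp (chromosome 14, 50944303 to 50953412), the phosphorylase that splits inosine and guanosine into base and sugar phosphate, stands just before these enzymes. Its levels were 69.8, 66.9 and 69.7 CPM in CSC, against 52.3, 51.1 and 55.7 CPM in non-CSC. The groups did not overlap, with a log2 fold change of 0.37 (SE 0.0442). Exons of other genes cover 21.9% of the Pnp exon bases, and 25.2% of the 50-base words of its longest transcript occur in transcripts of other genes. Most are shared with Gm49342 (23.1% of the words), whose exons also overlap those of Pnp. Its neighbour and near copy Pnp2 is also among the sharing genes, so part of the level of Pnp is uncertain. Pnp2 itself was counted 14, 10 and 27 times in CSC and 11, 13 and 4 times in non-CSC.

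The 3 members that act on adenosine and AMP on the breakdown side did not move together. Ada (chromosome 2, 163726571 to 163750239), the adenosine deaminase, had 10.2, 9.23 and 9.76 CPM in CSC, against 10, 9.92 and 9.48 CPM in non-CSC. These values overlap, and the log2 fold change was -0.01 (SE 0.0736). Ampd3 (chromosome 7, 110767790 to 110812409), an AMP deaminase known as the form of red blood cells, had 23.3, 22.2 and 22.6 CPM in CSC, against 32.3, 34.8 and 33.7 CPM in non-CSC. All CSC libraries were below all non-CSC libraries, with a log2 fold change of -0.57 (SE 0.0526). Nt5e (chromosome 9, 88327609 to 88372089) encodes CD73, the surface enzyme that makes adenosine from extracellular AMP and a marker of mesenchymal stromal cells. It was low in both groups, with 1.96, 2.58 and 2.24 CPM in CSC (54, 73 and 65 counts), against 0.924, 1.18 and 0.821 CPM in non-CSC (29, 41 and 29 counts). The groups did not overlap, and the log2 fold change of 1.21 had the largest SE of the 10 genes, 0.176. The exact Poisson 95% intervals of the nearest libraries, 1.47 to 2.56 CPM in CSC replicate 1 and 0.848 to 1.60 CPM in non-CSC replicate 2, overlap.

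The 2 salvage enzymes differed from each other. Adk (chromosome 14, 21052574 to 21448569), which phosphorylates adenosine to AMP, had 85.4, 85.5 and 86.6 CPM in CSC, against 50, 50.3 and 54.0 CPM in non-CSC. The groups did not overlap, and the log2 fold change was 0.74 (SE 0.0424). Adenosine can go either to Adk or to Ada, and the level of Adk per kilobase was 3.51 ± 0.183 times that of Ada in CSC and 2.09 ± 0.153 times in non-CSC (SD, n = 3 each). The size of this ratio rests on the transcript length used: with the mean length of all annotated transcripts it was 7.96 ± 0.415 in CSC and 4.74 ± 0.347 in non-CSC (SD, n = 3 each). Hprt (chromosome X, 52988078 to 53021660), which recovers hypoxanthine and guanine, had 68.1, 69.2 and 69.0 CPM in CSC, against 60.0, 64.5 and 68.4 CPM in non-CSC. The CSC libraries lay together at the upper end of the non-CSC range, and the ranges overlap, with a log2 fold change of 0.10 (SE 0.0459). This difference was not called in the fit, and it was called at 0.13 without non-CSC replicate 3. Hprt lies on the X chromosome, whose 505 tested genes had a median log2 fold change of 0.12. Xist, the RNA that coats the inactive X chromosome, was counted 5513, 5770 and 6207 times in CSC, against 191, 214 and 235 times in non-CSC. Its part in the level of Hprt was not tested.

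The IMP dehydrogenases carry out the first step from IMP to GMP, and the groups overlap for Impdh1 but not for Impdh2. Impdh1 (chromosome 6, 29200436 to 29216364) had 107, 105 and 106 CPM in CSC, against 110, 103 and 99.7 CPM in non-CSC. These values overlap, with a log2 fold change of 0.03 (SE 0.0393). Impdh2 (chromosome 9, 108560436 to 108565577) had 111, 106 and 107 CPM in CSC, against 126, 137 and 134 CPM in non-CSC. Here the CSC libraries were all below the non-CSC libraries, with a log2 fold change of -0.29 (SE 0.0393). Of the 50-base words of the longest Impdh2 transcript, 73.9% occur in the pseudogene Impdh2-ps, to which 1174, 1249 and 1252 counts were assigned in CSC and 1753, 1968 and 1970 in non-CSC. Reads of Impdh2 and its pseudogene cannot be fully separated, so the level of Impdh2 is uncertain. With both added, the level was 151 ± 2.08 CPM in CSC and 188 ± 6.20 CPM in non-CSC (SD, n = 3 each), a ratio of 0.803, beside 0.816 for Impdh2 alone. Per kilobase, Impdh1 made up 41.3% ± 0.448 of both enzymes' level in CSC and 36% ± 2.06 in non-CSC (SD, n = 3 each). With mean transcript lengths its share was 32.9% ± 0.408 in CSC and 28.2% ± 1.82 in non-CSC (SD, n = 3 each). With the longest transcripts and the pseudogene added to Impdh2, the share of Impdh1 was 33.4% ± 0.212 in CSC and 28.3% ± 1.58 in non-CSC (SD, n = 3 each).

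**Figure D2:**
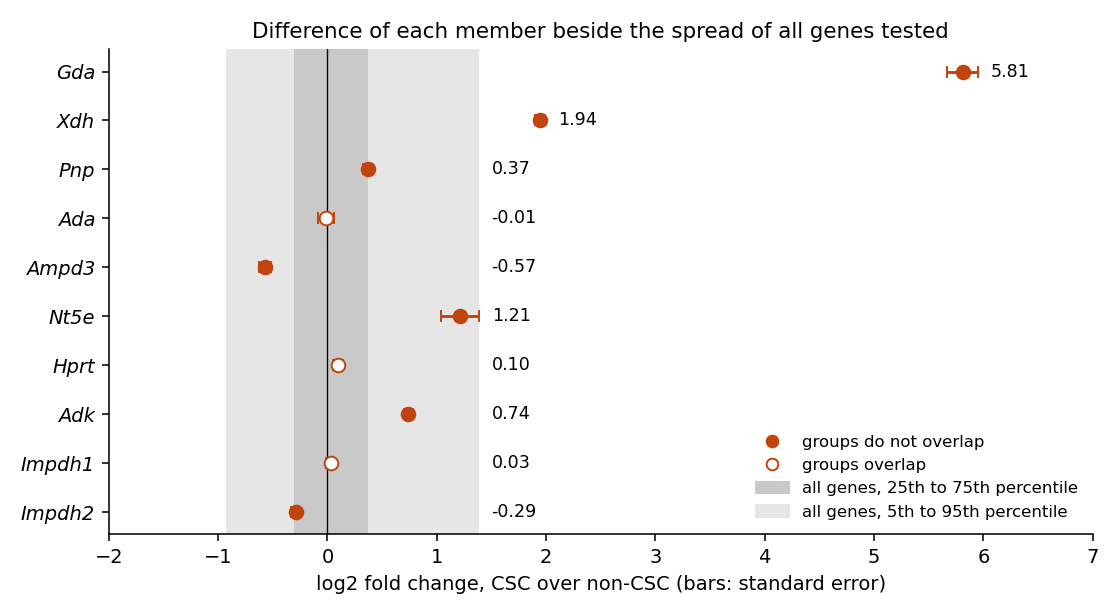
Log2 fold change of CSC over non-CSC for each gene, with SE bars, on the spread of all 17630 genes tested (grey bands, percentiles as marked). Gda at 5.81 and Xdh at 1.94 lie above the 95th percentile of 1.38, Ampd3 at -0.57 is the lowest of the 10, and open symbols mark the 3 genes whose groups overlap.

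Levels of different genes were compared per kilobase of the longest annotated transcript. In CSC the order was Impdh2 (58.1 CPM per kilobase), Hprt (53.3), Impdh1 (40.8), Pnp (23.4), Adk (20.2), Xdh (10.7), Ada (5.77), Ampd3 (5.55), Gda (2.70) and Nt5e (0.566). Among neighbours in this order, only Ada and Ampd3 overlapped each other. In non-CSC the first 5 genes kept this order, from 71.1 CPM per kilobase for Impdh2 to 12.1 for Adk, and were followed by Ampd3 (8.21), Ada (5.81), Xdh (2.78), Nt5e (0.244) and Gda (0.0474). No neighbours in the non-CSC order overlapped. Gda thus had the lowest level of the 10 in non-CSC, above 1.24% of the 15360 tested genes with a known transcript length, and a level above 31.1% of them in CSC. Xdh was above 60.4% of those genes in CSC and above 32% in non-CSC. This order rests on the transcript length used, and the percentiles are for the longest transcript only. With the mean length of all annotated transcripts the upper 5 were Impdh2 (135 CPM per kilobase), Adk (69.2), Impdh1 (66.0), Pnp (55.3) and Hprt (53.3) in CSC. Xdh (48.5), Ampd3 (12.2) and Ada (8.70) came next. In non-CSC Xdh (12.7) was then above Ada (8.76), and Gda (0.0811) was still the lowest.

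The members lie on 8 chromosomes, and each was set beside its genomic neighbours. A stretch of 30 adjacent tested genes, Gda included, spanned 6.78 Mb and had a median log2 fold change of -0.14, with 9 genes higher and 15 lower. The nearest tested protein-coding genes on either side of Gda were Zfand5, 104 kb away, and 1110059E24Rik, 125 kb away. Their log2 fold changes were -0.24 (edgeR adjusted p = 1.74e-05) and -0.25 (edgeR adjusted p = 0.000632). Chromosome 19 as a whole had a median of -0.24 over 633 tested genes. A further tested gene, Gm38486, starts between Gda and 1110059E24Rik and was higher in CSC, with a log2 fold change of 0.69, and is named here after its value was seen. The stretch that holds Xdh had a median of 0.06. It held other genes with large differences, named here after their values were seen. Higher in CSC were Capn13, a calpain protease gene, at 5.61, Rasgrp3, which encodes a Ras activator, at 2.73, and Nlrc4, an inflammasome sensor gene, at 2.19 on the log2 scale. Ltbp1 was lower in CSC, at -1.10. The medians of the other 8 stretches ran from -0.21 (Pnp) to 0.08 (Nt5e). Pnp and Adk are both on chromosome 14, which had a median of -0.17 over 582 genes, and both were higher in CSC.

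**Figure D3:**
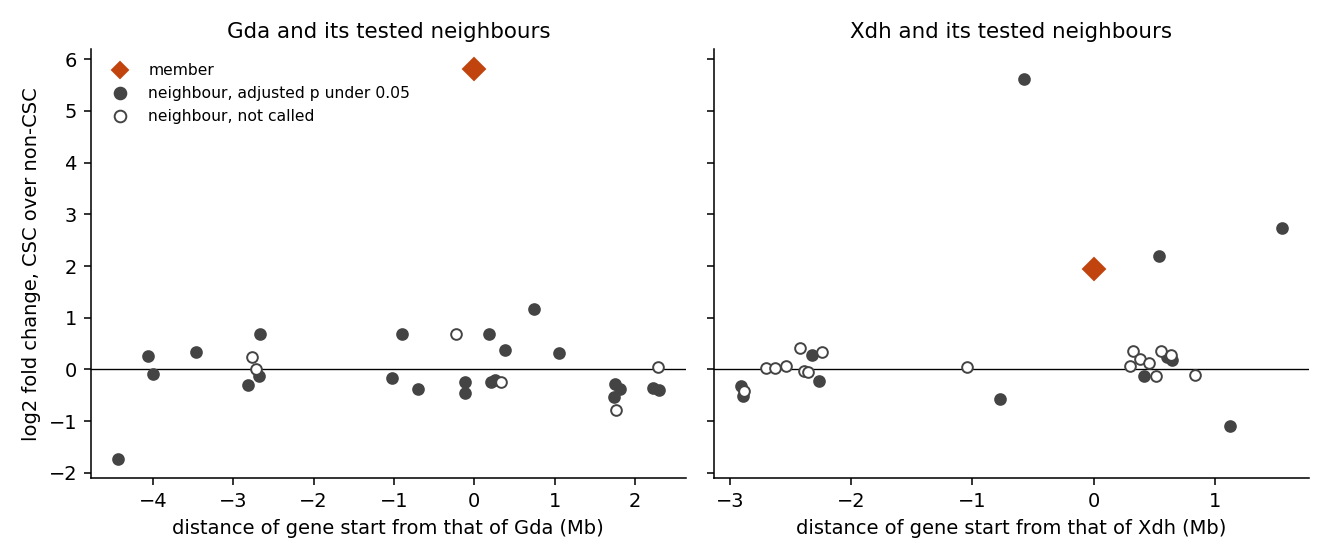
Log2 fold change of CSC over non-CSC for Gda (left) and Xdh (right) and the adjacent tested genes, against the distance of their start from that of the member, in megabases. Gda at 5.81 stands alone among neighbours of -1.73 to 1.17, while the stretch of Xdh also holds Capn13 at 5.61, Rasgrp3 at 2.73 and Ltbp1 at -1.10.

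The remaining genes were taken from 11 lists by role, with none of the 10 members among them. The lists hold purine genes and genes set beside them. The latter include 5 genes of molybdenum cofactor synthesis, 8 of milk proteins and milk fat droplets, and receptors of UTP, UDP and UDP-glucose. The pooled figures are therefore not of purine genes alone. The lists were chosen with earlier results of these data known, so the share called is a description. Of 104 genes, 76 were tested, and 31 rose and 30 fell in CSC (edgeR quasi-likelihood test, Benjamini-Hochberg adjusted p under 0.05 over all genes). That is 80.3% of those tested, against 66.5% of all genes. The split depends on the scaling: with upper-quartile or library-size scaling 40 rose and 27 fell. Their median log2 fold change was 0.07, and 8 rose and 4 fell at least 2-fold.

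De novo synthesis of IMP, the common precursor of AMP and GMP, was mixed. Of 10 genes tested, 4 rose, 3 fell and 3 were not called, with a median of 0.08, and their summed level was 1289 ± 11.4 CPM in CSC and 1220 ± 11.6 CPM in non-CSC (SD, n = 3 each). The largest differences were in the supply of phosphoribosyl pyrophosphate, which Hprt also uses. Prps1, a synthetase of that substrate, had 25.2, 26.0 and 26.5 CPM in CSC, against 51.9, 55.2 and 56.2 CPM in non-CSC, and fell by 1.07 on the log2 scale (edgeR adjusted p = 6.48e-15). Its paralog Prps2 rose by 0.36 (edgeR adjusted p = 4.56e-07), and Prpsap1, an associated regulatory subunit, fell by 0.51 (edgeR adjusted p = 7.82e-11). Prps1 and Prps2 are both on the X chromosome, like Hprt. The transcript of Prps1 shares 10.1% of its 50-base words with Prps1l3. The genes not called included Ppat, the committed step, at 0.09.

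On the branches from IMP to AMP and GMP, 1 of 5 genes rose and 3 fell, with a median of -0.31. Gmps, which makes GMP after the IMP dehydrogenase step, fell to 185 ± 4.53 CPM in CSC, against 240.0 ± 17.6 CPM in non-CSC (SD, n = 3 each; log2 fold change -0.38, edgeR adjusted p = 2.68e-07). Gmpr2, a GMP reductase that leads back to IMP, fell by 0.47, with 43.9% of its exon bases covered by other genes, and Adssl1 fell by 0.31. Adss, an adenylosuccinate synthetase, rose by 0.23, and Gmpr, the other GMP reductase, was at 0.21 and was not called.

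Other salvage genes were also divided, since 3 of 7 rose and 2 fell (median -0.07). Dck, the deoxycytidine kinase that also phosphorylates deoxyadenosine and deoxyguanosine, rose to 40.3 ± 1.90 CPM in CSC, against 20.1 ± 1.35 CPM in non-CSC (SD, n = 3 each; log2 fold change 1.00, edgeR adjusted p = 3.61e-13). Samhd1, a hydrolase of deoxynucleoside triphosphates, rose by 0.51, and Dguok, the mitochondrial deoxyguanosine kinase, fell by 0.27. Aprt, the adenine counterpart of Hprt, was not called, with 257 ± 8.19 CPM in CSC and 269 ± 2.76 CPM in non-CSC (SD, n = 3 each). Of the intracellular nucleotidases and other AMP deaminases, 4 of 7 tested rose and 2 fell, with a median of 0.29. Nt5c2, the cytosolic nucleotidase of IMP and GMP, rose by 0.84 (edgeR adjusted p = 4.29e-12), Nt5c3b rose by 0.38 and Nt5c3 fell by 0.53. Ampd2, chosen after its value was seen, rose by 0.29, while Ampd3 was lower.

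Genes that handle urate were few at a measurable level. Of 9 genes of urate formation, breakdown and transport, 4 passed the low-count filter. Of those 3 rose, none fell, and the median was 0.31. Urah, named here after its value was seen, was not called, at a log2 fold change of 0.01. Abcg2, an efflux pump that carries urate among other substrates, had 55.3, 65.7 and 63.4 CPM in CSC, against 29.0, 28.2 and 26.8 CPM in non-CSC, and rose by 1.14 on the log2 scale (edgeR adjusted p = 3.41e-13). Aox1, an aldehyde oxidase related to Xdh, rose by 0.18 (edgeR adjusted p = 0.0189). Uox, which breaks urate down, was not tested, its mean level being 0.0115 CPM in CSC with no count in non-CSC. Xdh needs a molybdenum cofactor. Of the 5 genes of its synthesis, 3 fell and 1 rose, with a median of -0.30. Gphn, a cofactor synthesis enzyme that is also a synaptic scaffold, fell to 11 ± 0.465 CPM in CSC, against 21.4 ± 0.290 CPM in non-CSC (SD, n = 3 each; log2 fold change -0.96, edgeR adjusted p = 2.98e-12). Mocs2 rose by 0.34 and Mocos, which activates Xdh by adding sulphur, fell by 0.31. Of the milk proteins and droplet partners of Xdh, 3 of 8 were tested. Plin2, a lipid droplet coat protein gene, rose by 0.12, Csn3 fell by 0.30, and Btn1a1, the droplet partner of Xdh, was not called at 1.66 ± 0.137 CPM in CSC and 1.83 ± 0.148 CPM in non-CSC (SD, n = 3 each).

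**Figure D4:**
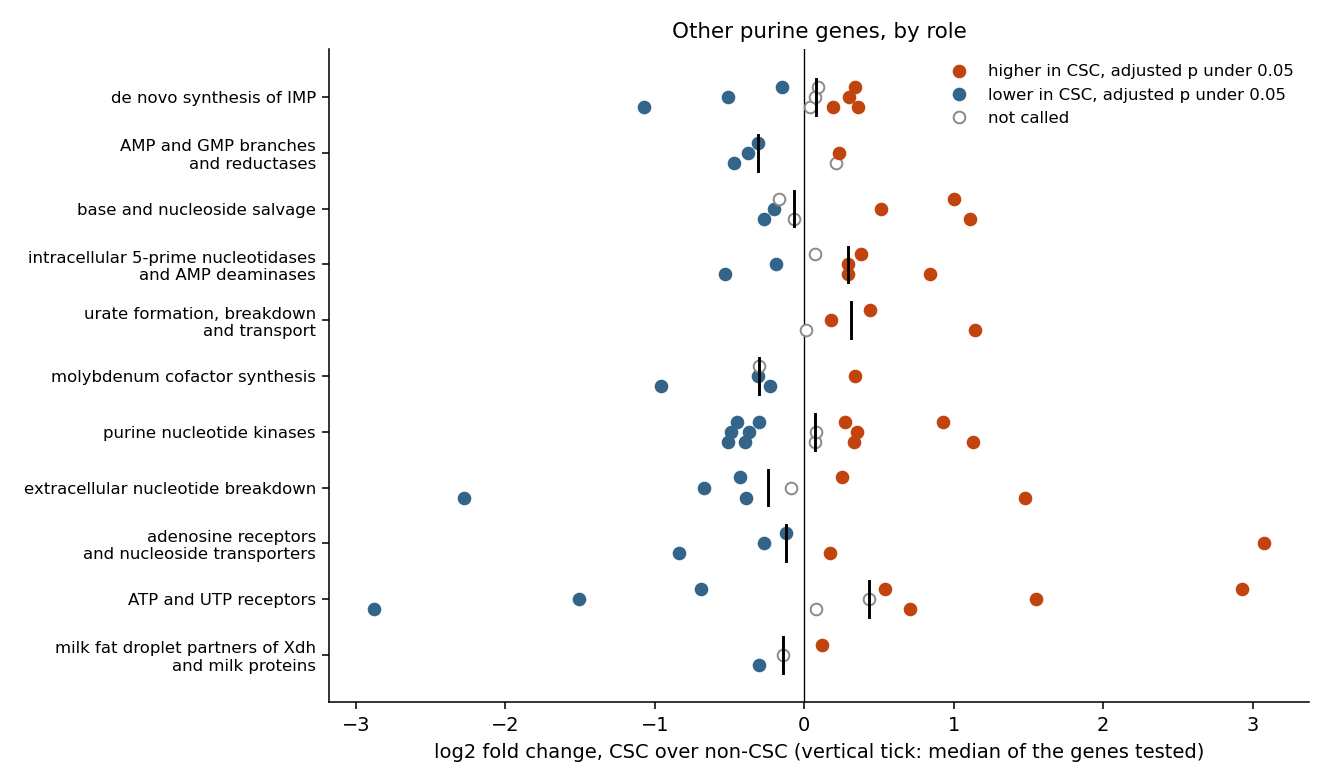
Log2 fold change of CSC over non-CSC for the tested genes of the 11 lists by role, outside the 10 members. Points are coloured by call, with a tick at the median of each list. Each list holds genes that rose and genes that fell, except the urate list, in which none fell, and Alpl, which had no count in non-CSC, is not drawn.

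The kinases that convert purine monophosphates and diphosphates included 5 of 13 that rose and 6 that fell, with a median of 0.07. The named kinases were Nme4 at -0.49, Nme6 at -0.45 and Nme3 at -0.51, the last with 99.7% of its exon bases covered by other genes. Of the genes listed for extracellular nucleotide breakdown, not all of which act at the cell surface, 3 of 8 tested rose and 4 fell, with a median of -0.24. Entpd5 fell by 0.67 and Entpd2, a surface enzyme that removes phosphate from ATP ahead of Nt5e, by 0.43, with 28.8% of its exon bases covered by other genes, and Enpp1 fell by 0.39. None of the 4 adenosine receptor genes passed the low-count filter. The adenosine receptors and nucleoside transporters had 5 of 12 genes above the filter. Of these, 2 rose and 3 fell, and the median was -0.12. The equilibrative transporter genes Slc29a2 and Slc29a1 fell by 0.84 and 0.27, and Slc29a3 rose by 0.17. Of the ATP and UTP receptor genes, 4 of 9 tested rose and 3 fell, with a median of 0.43. P2rx4 fell by 0.69 (edgeR adjusted p = 1.06e-12) and P2ry2 rose by 0.54 (edgeR adjusted p = 1.53e-08).

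The pattern of Gda over the 6 libraries was compared with that of 12109 other tested protein-coding genes, by Euclidean distance between log2 CPM values. Among the closest were Cdyl2 (distance 0.761), Rasl10b (1.53), Gbp9 (1.84) and Lcn2 (2.03). Of these, Cdyl2 was counted 316, 332 and 345 times in CSC and 13, 11 and 8 times in non-CSC. Closeness here means a like level and a like difference between the groups, since the 6 libraries form only these groups.

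Library totals were 27099879 to 28205651 counts in CSC and 32204112 to 35971131 in non-CSC. The 5 epithelial markers (Krt8, Krt18, Krt19, Epcam and Cdh1) were all present, and their summed level was 2777 to 2937 CPM in CSC and 2595 to 2731 CPM in non-CSC. Of 6 fibroblast markers 3 were tested, and their sum was 1196 to 1243 CPM in CSC and 555 to 589 CPM in non-CSC. Nearly all of it was Dcn, with Lum at 0. Of 8 leukocyte and macrophage markers 3 were tested, with a sum of 35.6 to 36.7 CPM in CSC and 27.4 to 29.4 CPM in non-CSC, and with Adgre1 and Cd3e at 0. Endothelial markers summed to 0.389 to 0.517 CPM in CSC and 0.481 to 0.797 CPM in non-CSC, and erythroid markers to 1.92 to 2.07 CPM in CSC and 1.05 to 1.4 CPM in non-CSC. The epithelial, fibroblast, leukocyte and erythroid sums were all higher in CSC, like Gda, Xdh, Pnp, Adk and Nt5e, and their part in these differences was not tested. The leukocyte sum does not speak for each marker, since Cd68 was lower in CSC, at 17.8 CPM against 25.4 CPM in non-CSC. The erythroid sum was mostly Alas2, at 1.86 CPM in CSC and 1.12 CPM in non-CSC.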

How the data were processed

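The data are RNA-seq libraries of EO771 cells, 3 labelled CSC and 3 labelled non-CSC. The authors deposited whole-number read counts per gene symbol, unnormalized, with GRCm38 as the build named in the submitters' processing notes, from total RNA and NEBNext Ultra II libraries per the labels' protocols. For the aligner, counter, annotation and strand setting, nothing is given in the sources used here. Without the strand setting, reads of overlapping and antisense genes cannot be separated.

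From the deposited counts, edgeR 4.0.16 (R 4.3.3) was run over all genes: filterByExpr left 17630 genes, scaled with TMM, and the robust quasi-likelihood test compared CSC with non-CSC without covariates, with Benjamini-Hochberg adjustment and a threshold of 0.05. The SE was taken as the absolute log2 fold change over the square root of F. Log2 CPM used a prior count of 2. The method was tested on simulated data, with 50 genes changed at each size. It recovered 44% of 1.2-fold, 84% of 1.5-fold, 92% of 2-fold and 100% of 4-fold changes, and called 7 unchanged genes. Small differences can therefore be missed. Few genes were changed there, so scaling under differences as widespread as these was not tested. Within groups, replicates differed by a chi-square of 3.21 to 7.30 per degree of freedom, more than sampling noise, and all 6 were kept.

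The members and lists were chosen with earlier results of these data known. From each list the text names up to 3 called genes whose mean reached 5 CPM, those with the largest differences. Also named are the genes closest to Gda among the first 5, of which 1 is not reported here, and its nearest neighbours. Genes outside this rule were named after their values were seen. Of 132 listed genes, all were in the table, 1 through another symbol (Prtfdc1 as Gm13377, annotated as a pseudogene). Transcript lengths, exon overlap and shared 50-base words came from GENCODE M21 and positions from RefSeq, both on GRCm38. The alternatives were other scalings and filters, DESeq2 1.42.0, limma-voom 3.58.1, a replicate block, a chromosome offset, other lengths and windows, and leaving out each library.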

Additional observations from a re-analysis of the deposited data

How the results depend on the processing

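The log2 fold changes of Gda (5.72 to 6.05), Xdh (1.90 to 2.00), Pnp (0.34 to 0.55), Adk (0.71 to 0.91), Nt5e (1.08 to 1.37), Ampd3 (-0.60 to -0.50) and Impdh2 (-0.35 to -0.23) had the same sign in every alternative fit run, except that Nt5e was below the filter at a mean of 50 counts and gave no value there. Since the members were chosen by this comparison, that is a description and no support for them. The other 3 members lie near 0 and changed side. Ada was at 0.05 with upper-quartile scaling, 0.06 with library-size scaling and 0.02 with the filter at 50 counts, and from -0.06 to 0.02 with single libraries left out. It was never called. Hprt was called at 0.15 with upper-quartile scaling, 0.16 with library-size scaling and 0.13 with the filter at 50 counts, was at -0.02 with the chromosome offset, and ran from 0.04 to 0.13 with single libraries left out. Impdh1 was called at 0.10 with library-size scaling, was at -0.01 with the chromosome offset, and ran from -0.01 to 0.06 with single libraries left out. Those 2 scalings move the median of all genes by 0.059 and 0.066. The causes of the other changes were not tested. Of the genes in the lists by role, 56 to 69 were called over the alternatives, against 61. For them, upper-quartile and library-size scaling each gave 40 higher and 27 lower, against 31 and 30. Over all genes upper-quartile scaling gave 6700 higher and 5066 lower and library-size scaling 6781 and 4970, against 5894 and 5838. Same-numbered libraries of the groups did not deviate together (correlations of -0.0187, -0.0745 and 0.0102). With the replicate block 11680 genes were called, against 11732 without it, and 61 of the genes in the lists by role in both fits. Depth limits Gda in non-CSC, at 8 or 9 counts per library, and Nt5e.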

Other observations

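Several genes of extracellular purine handling had low levels but large differences. They were chosen after their values were seen, and their low counts keep them outside the rule for named genes. Alpl, the tissue-nonspecific alkaline phosphatase, which like Nt5e can release adenosine from AMP, was counted 31, 35 and 43 times in CSC and not at all in non-CSC. Against a floor of 3 counts over the non-CSC libraries it was at least 43.3-fold higher in CSC (edgeR adjusted p = 1.48e-10). Slc28a3, a concentrative nucleoside transporter, had 2.12 ± 0.288 CPM in CSC and 0.245 ± 0.0854 CPM in non-CSC (SD, n = 3 each; log2 fold change 3.08, edgeR adjusted p = 1.22e-10). Entpd3, an ectonucleotidase that removes phosphate from ATP and ADP, fell to 0.448 ± 0.174 CPM in CSC, against 2.18 ± 0.292 CPM in non-CSC (SD, n = 3 each; log2 fold change -2.28, edgeR adjusted p = 6.54e-09).

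Receptors for extracellular nucleotides differed in both directions. P2ry6, a receptor of UDP, had 109, 94 and 112 counts in CSC and 15, 15 and 19 in non-CSC, and rose by 2.93 on the log2 scale (edgeR adjusted p = 5.85e-13). P2ry14, a receptor of UDP-glucose, had 7.40, 6.40 and 6.31 CPM in CSC and 2.42, 2.16 and 2.29 CPM in non-CSC, and rose by 1.55 (edgeR adjusted p = 1.96e-11). P2ry1 had 1.03 CPM in CSC and 2.94 CPM in non-CSC, and fell by 1.51 on the log2 scale (edgeR adjusted p = 5.98e-08). Exons of Gm37035 cover 23.1% of the P2ry1 exon bases. P2ry12 fell by 2.88 on the log2 scale (edgeR adjusted p = 3.49e-07), at 3, 8 and 1 counts in CSC and 30, 42 and 36 in non-CSC.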
